A study of Homo sapiens with 12 samples.

Results

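The 3 RNA-seq libraries of untreated U937 cells, out of 12 libraries in the series, were used to describe which genes of myeloid identity, signaling and transcription were expressed or silent before any drug was given. U937 is an established cell line with monocytic features that was grown from a histiocytic lymphoma and carries a PICALM-MLLT10 fusion, and the labels call it an AML cell line. The other 9 libraries, from cells given decitabine (DAC), all-trans retinoic acid (ATRA) or both, were not used here, and no comparison between treatments was made. According to the labels the untreated cells received neither drug and were collected at 96 h, after culture in medium with 20% fetal calf serum and 5 ng/ml GM-CSF, whereas the series' design text places the harvest at 72 h. The study's methods give another serum content for its cell lines and name no GM-CSF, so the medium of these cells is uncertain. The design text calls the triplicates technical, so the SD given below measures the spread between 3 libraries of a single cell line and no more. The 3 columns carry no replicate numbers and are called libraries 1, 2 and 3 in the order of the deposited table.

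Blood cells arise from stem cells that restrict their fate step by step, and in the myeloid branch the transcription factors PU.1 (SPI1) and C/EBPα (CEBPA) together switch on granule proteins and growth factor receptors. Promyelocytes store myeloperoxidase and neutrophil serine proteases in primary granules, later granulocyte stages make secondary granule proteins, and monocytes acquire Fc receptors, scavenger receptors and MHC class II. Posterior HOXA genes and their partner MEIS1 keep progenitors immature, and leukemias with a PICALM-MLLT10 fusion are known for high HOXA expression. Retinoic acid acts through receptors of the RAR and RXR families, and decitabine traps DNA methyltransferase DNMT1 on DNA.

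Values are normalized reads, that is, reads counted per transcript and divided by a size factor for the library, summed here over all transcripts of a gene symbol. The libraries held 9813352, 10066425 and 9666728 counted reads, of which 40.6%, 42.1% and 42.5% lay on mitochondrial transcripts, and 3 reads were worth 2.76, 2.73 and 2.77 normalized reads. A gene was called expressed with at least 10 normalized reads in every library. It was called silent with at most 3 reads in every library, provided that at least 200 bases of its main transcript could receive a count, because reads that several transcripts share appeared to be missing from the table. How such reads were counted is not given in the sources used here. The bases, called countable below, belong to no other transcript on the same strand and occur once in the genome. A gene with at most 3 reads in every library but without these 200 bases was left unresolved, which is no call on its expression. All other genes were called low, which refers to their reads and not to the amount of RNA. Of 19767 protein-coding symbols outside the mitochondrial genome, 8421 (42.6%) were expressed, 2564 (13%) low, 2278 (11.5%) silent and 6504 (32.9%) unresolved. Of the unresolved symbols, 4403 had at least 200 countable bases on other transcripts.

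A set of 635 genes in 38 lists was then described against this background. Of these genes, 274 were expressed, 94 low, 51 silent and 216 unresolved, so that the share of expressed genes, 43.1%, was close to that of all coding symbols and the share of silent genes, 8.03%, was below it. Signaling genes were expressed in 135 of 232 cases, with a median of 29.5 normalized reads, against a median of 4.90 over all coding symbols. Transcription factors followed with 78 of 174 expressed and 21 silent. Lineage surface and granule genes had 39 of 115 expressed, with 53 unresolved. Markers of other cell types had 9 of 93 expressed, 61 unresolved and a median of 0.

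**Figure D1:**
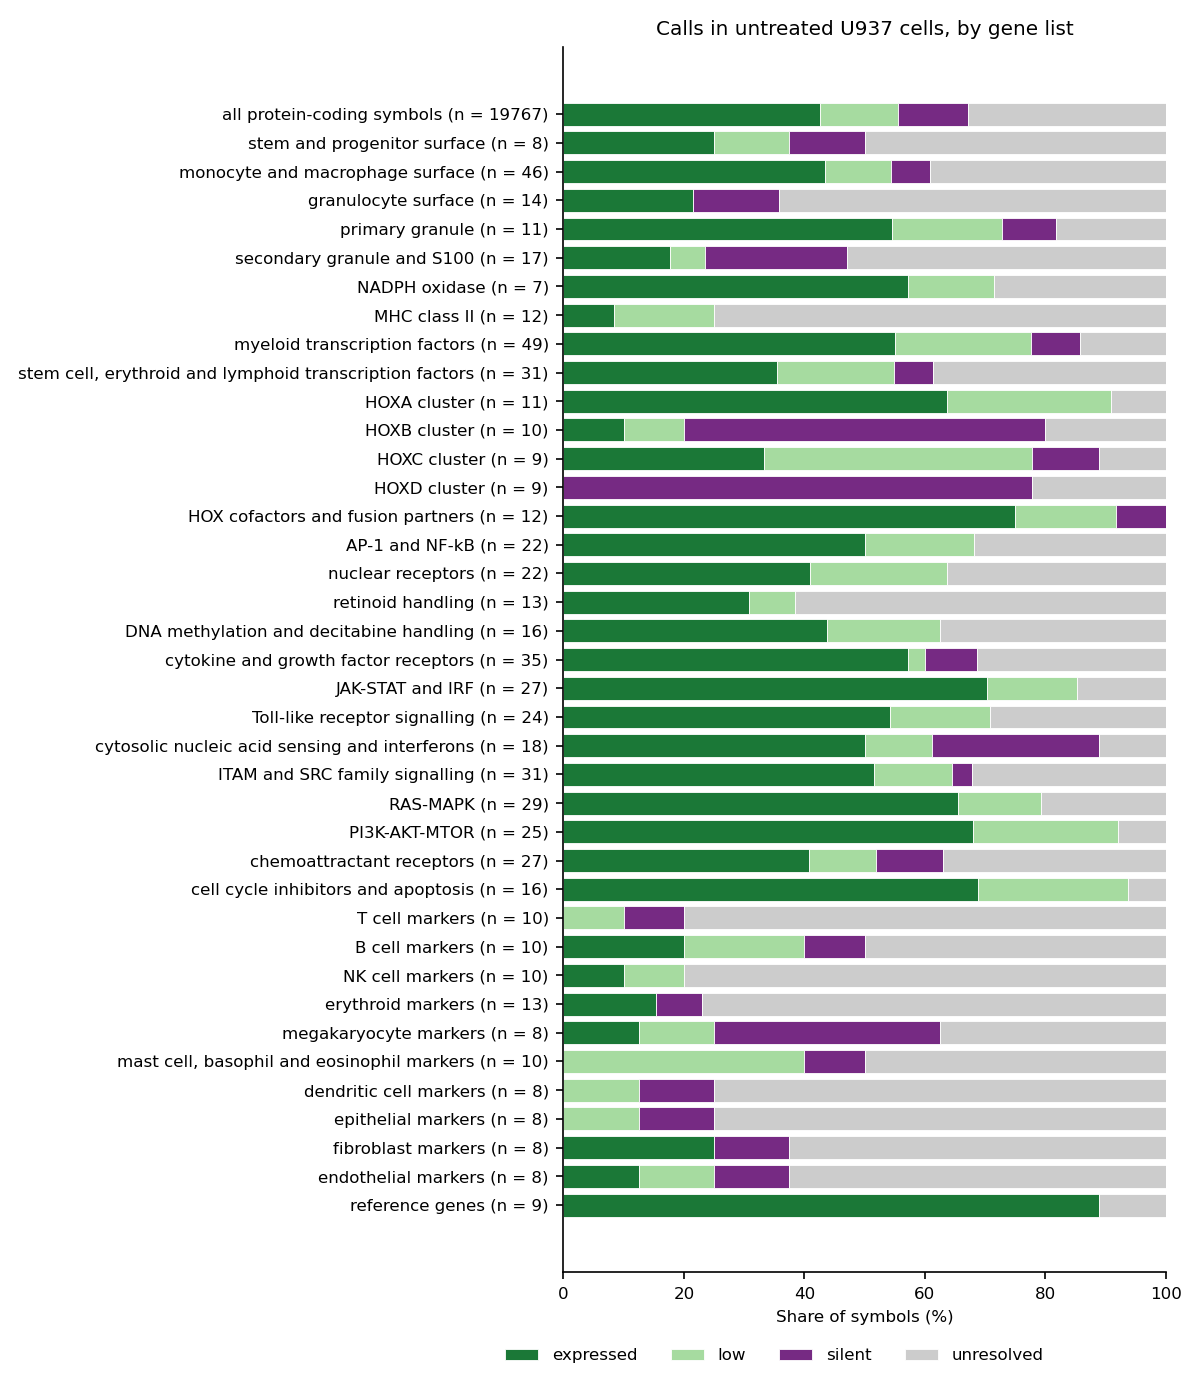
Share of each gene list called expressed, low, silent or unresolved in the untreated U937 libraries, as horizontal bars in percent of the list's genes, with all protein-coding symbols as the first bar for comparison. JAK-STAT and PI3K lists are mostly expressed (19 of 27 and 17 of 25 genes), the HOXD list has 7 of 9 genes silent, and 61 of the 93 markers of other cell types are unresolved.

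Promoter sequence is shown for 4 genes of this baseline, to let expressed and silent genes be seen with more and with fewer CpG dinucleotides. CpGs matter here because they are the sites that DNA methyltransferases act on. The 250 bases before the RefSeq transcription start (GRCh38.p14) are printed 5′ to 3′ on the gene's strand, with every CG in capitals. CEBPA encodes the C/EBPα transcription factor and lies on the minus strand with this window at chr19:33302535-33302784. RNASE2 encodes the eosinophil-derived neurotoxin, a granule ribonuclease, with its window at chr14:20955237-20955486 on the plus strand. HOXD13 is the most posterior gene of the HOXD cluster, with its window at chr2:176092471-176092720 on the plus strand. S100A12 encodes calgranulin C of granulocytes and monocytes, with its window at chr1:153375622-153375871 on the minus strand.
CEBPA: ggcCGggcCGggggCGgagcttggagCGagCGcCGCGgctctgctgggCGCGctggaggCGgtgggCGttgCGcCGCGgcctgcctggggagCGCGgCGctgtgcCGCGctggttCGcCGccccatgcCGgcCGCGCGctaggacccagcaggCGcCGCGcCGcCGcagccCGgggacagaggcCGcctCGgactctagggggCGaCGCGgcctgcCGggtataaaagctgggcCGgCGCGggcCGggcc
RNASE2: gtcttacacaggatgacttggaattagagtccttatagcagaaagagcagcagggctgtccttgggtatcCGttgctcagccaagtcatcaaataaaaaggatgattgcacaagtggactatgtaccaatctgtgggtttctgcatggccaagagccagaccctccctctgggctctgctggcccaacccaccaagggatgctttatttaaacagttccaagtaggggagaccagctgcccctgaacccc
HOXD13: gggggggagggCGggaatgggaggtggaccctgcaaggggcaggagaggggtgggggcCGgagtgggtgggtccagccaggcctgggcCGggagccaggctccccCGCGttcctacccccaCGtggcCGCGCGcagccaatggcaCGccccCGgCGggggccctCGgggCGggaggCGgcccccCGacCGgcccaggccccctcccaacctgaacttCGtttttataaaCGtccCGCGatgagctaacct
S100A12: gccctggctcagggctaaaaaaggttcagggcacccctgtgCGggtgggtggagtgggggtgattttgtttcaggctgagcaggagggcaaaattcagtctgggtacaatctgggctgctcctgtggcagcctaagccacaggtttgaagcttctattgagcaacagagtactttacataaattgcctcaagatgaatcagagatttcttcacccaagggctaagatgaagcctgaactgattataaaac
The window of CEBPA held 41 CpGs and that of RNASE2 held 1, and both genes were expressed, with 8764, 7716 and 6892 normalized reads for CEBPA and 6817, 6280.1 and 6079 for RNASE2 in libraries 1, 2 and 3. The window of HOXD13 held 21 CpGs and that of S100A12 held 1, and neither gene had a read in any library, although 2416 and 485 bases of their main transcripts were countable. The 4 genes were picked for these combinations and are single cases.

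Across the 10616 coding symbols with a single RefSeq start, the same window held a median of 22 CpGs in 4809 expressed genes, 18 in 1235 low genes, 5 in 1441 silent genes and 11 in 3131 unresolved genes. At least 12 CpGs were present in 86.6% of expressed and 35.0% of silent promoters, against 66.4% of all. The HOXD cluster had no expressed gene, yet its 8 promoters with a single start had a median of 22 CpGs and 87.5% of them held 12 or more. Promoters of 24 monocyte surface genes had a median of 2.5 CpGs and those of 10 secondary granule and S100 genes a median of 1, whereas those of 21 myeloid transcription factors had a median of 25. The letters GAGGAAGT, of the kind that ETS factors such as PU.1 bind, were searched on both strands (ACTTCCTC on the other) and occurred in 218 of the 10616 promoters (2.05%), in 2.04% of the expressed, 2.83% of the low, 1.39% of the silent and 2.08% of the unresolved ones. None of the 4 printed windows holds these letters.

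Among the nuclear genes whose reads were retained in counts per transcript, the highest combined housekeeping and myeloid functions. Unresolved genes and genes that appeared to lose reads in this counting, such as ACTB below, have no true place in this order. The 10 symbols with the most normalized reads were MSN (88916 ± 2861, SD, n = 3), EEF2 (86349 ± 7004), SCD (59443 ± 1414), MPO (52578 ± 3072), TMSB10 (43113 ± 2973), CD93 (31048 ± 3184), MYH9 (23846 ± 1135), PCBP1 (21790.0 ± 866), SLC38A1 (21561 ± 1851) and HSPA5 (20764 ± 1924). Moesin (MSN), thymosin beta 10 (TMSB10) and non-muscle myosin heavy chain (MYH9) act on the actin cytoskeleton, EEF2 drives ribosome translocation, SCD desaturates fatty acids and HSPA5 is the chaperone BiP of the endoplasmic reticulum. MPO and CD93 are the myeloid genes among them. Per kb of countable sequence the 10 highest were TMSB10, MPO, EEF2, COX8A, NDUFA1, MSN, SLC7A5, PCBP1, SCD and SF3B5, 6 of which are also in the list by reads. The 10 symbols with the most reads held 8.99% of all reads on coding symbols, and the 1193 symbols with at least 1000 normalized reads held 72.9%.

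Primary granule genes, with 6 expressed, 2 low, 1 silent and 2 unresolved of 11 and a median of 164 normalized reads, held the gene with the highest level of the lineage lists per kb. MPO, the heme enzyme myeloperoxidase, had 52637, 55619.9 and 49477 normalized reads in libraries 1, 2 and 3. RNASE2, whose promoter is printed above, reached 6392 ± 382 (SD, n = 3). SERPINB1, an inhibitor of neutrophil proteases, had 1698, 1734 and 1647 and the cystatin CST7, an inhibitor of lysosomal cathepsins, 549.6, 616 and 545. Serglycin (SRGN), the proteoglycan that packs granule proteins, had 202, 212 and 166 and lysozyme (LYZ) 157, 155 and 181. The 3 libraries of each of these genes lay close together and far above the threshold. Of the serine proteases, ELANE (neutrophil elastase) had 4.60, 1.82 and 3.69 and CTSG (cathepsin G) 6.43, 10.01 and 4.62 normalized reads, both low, while PRTN3 and AZU1 of the same family were unresolved. BPI, the bactericidal protein of primary granules, was silent, with 0, 0 and 2 reads in the 3 libraries over 2544 countable bases of its main transcript. Levels of different genes were compared per kb, over a range from all exon bases to the countable bases of all transcripts. The number of bases that gave counts is unknown and can be smaller than either, so a level may lie above the range. On this scale MPO lay at 14907 ± 871 normalized reads per kb of exon and 76981 ± 4498 per kb of countable sequence, above RNASE2 at 8878 ± 530.0 and 9729 ± 581, without overlap of their libraries on either scale. CST7, whose whole transcript was countable, lay at 640.0 ± 44.8 per kb.

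Genes of later granulocyte stages were in large part unresolved. In the list of secondary granule and S100 genes 3 of 17 were expressed, 1 was low, 4 were silent and 9 were unresolved. S100A9, a subunit of calprotectin, had 80.9, 84.7 and 74.8 normalized reads, and its partner S100A8 was unresolved. MMP9 (gelatinase B) had 19.3, 12.7 and 10.2 and the cathelicidin CAMP 11, 11.8 and 10.2, just above the threshold of 10, and with a minimum of 30 only S100A9 of this list was expressed. The silent genes were OLFM4, PGLYRP1, DEFA4 and S100A12, none with a read in any library, over 2843, 708, 587 and 485 countable bases. A count of 0 allows up to 3 reads, that is 2.77 normalized reads in the shallowest library, and this limit covers counting error only. Lactoferrin (LTF) and the lipocalin LCN2, usual markers of this stage, were unresolved.

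The membrane part of the NADPH oxidase, which makes superoxide in phagocytes, was expressed, and the list as a whole had 4 expressed, 1 low, 0 silent and 2 unresolved of 7. CYBB (gp91phox) had 251, 212 and 209.6 and CYBA (p22phox) 832, 830.2 and 779 normalized reads. Of the small GTPases of the complex, RAC2, the isoform of blood cells, had 2357, 2552 and 2318 and RAC1 7040.2, 6877 and 6379. Per kb RAC1 (2182 ± 111 to 3023 ± 154) lay above RAC2 (955 ± 49.8 to 1657 ± 86.5) over the whole range. Of the cytosolic subunits, NCF4 (p40phox) was low with 0, 2.73 and 4.62, and NCF1 was unresolved.

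Among surface proteins of monocytes and macrophages, 20 of 46 genes were expressed, 5 low, 3 silent and 18 unresolved. The expressed share of 43.5% was close to the 42.6% of all coding symbols. CD93, a C-type lectin receptor of monocytes and endothelium, stood first with 34698, 29606 and 28842 normalized reads and 4647 ± 477 per kb over a fully countable transcript. FUT4, the fucosyltransferase that makes the CD15 epitope, had 5446, 5303 and 5096. The adhesion molecule CD44 had 4465, 4410.4 and 4077 and CD4, which monocytes carry as well as helper T cells, 3557, 4025 and 3621. Sialophorin (SPN, CD43) had 3197, 2907 and 2794 and the integrin chain ITGA4 1655, 1578 and 1602. These 6 genes each had over 1000 normalized reads in every library. CLEC12A, an inhibitory lectin of myeloid cells, had 879, 991 and 1014, and CD33, the sialic acid receptor targeted in AML, 840.0, 810.2 and 894. On transcripts that the annotation marks as retained introns lay 99.96% of the CD33 reads, so that spliced CD33 mRNA and unspliced precursor RNA cannot be told apart. The Fc receptor FCGR2A (CD32) had 388, 379 and 407 and the high-affinity receptor FCGR1A (CD64) 183, 166 and 139, which are uncertain because both have near-identical neighbors. The scavenger receptor CD36 had 307, 265 and 263, 97% of them on retained-intron transcripts. ITGAM (CD11b), a chain of the Mac-1 integrin, had 194, 206 and 218, and its partner ITGB2 (CD18) had 171, 124 and 105, highest in library 1. The aminopeptidase ANPEP (CD13) had 27.6, 24.6 and 19.4. The CD11c chain ITGAX had 16.5, 28.2 and 30.5. CD33, CD36 and ITGAX were no longer called expressed with protein-coding transcripts only. The mannose receptor MRC1 was low, with 20.2, 12.7 and 9.24.

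Silent members of this list were the chemokine receptor CCR2 of inflammatory monocytes with 2, 2 and 2 reads, the efferocytosis kinase MERTK with 0, 0 and 1 and the scavenger receptor MARCO with 0, 0 and 0, over 976, 214 and 574 countable bases. With 0 reads required in every library 1 gene was silent. With 200 countable bases on any transcript 15 were silent, and with revised stretches of the main transcript included 6. CD14, CD68, CSF1R, CD163, FCGR3A, CD86, LILRB4 and PTPRC (CD45) were unresolved. Their reads, between 0 and 1 in each library, come from transcripts without the required countable bases and therefore do not show that monocyte identity was absent. For the check of the label, 14 markers of U937 identity were used, of which 7 were expressed (CD33, ANPEP, SPI1, MPO, LYZ, CD4 and ITGB2), 2 low (ELANE and CTSG), 0 silent and 5 unresolved (PRTN3, AZU1, CD68, CSF1R and CD14). Of all coding symbols 42.6% were expressed, so this count by itself does not set the markers apart.

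**Figure D2:**
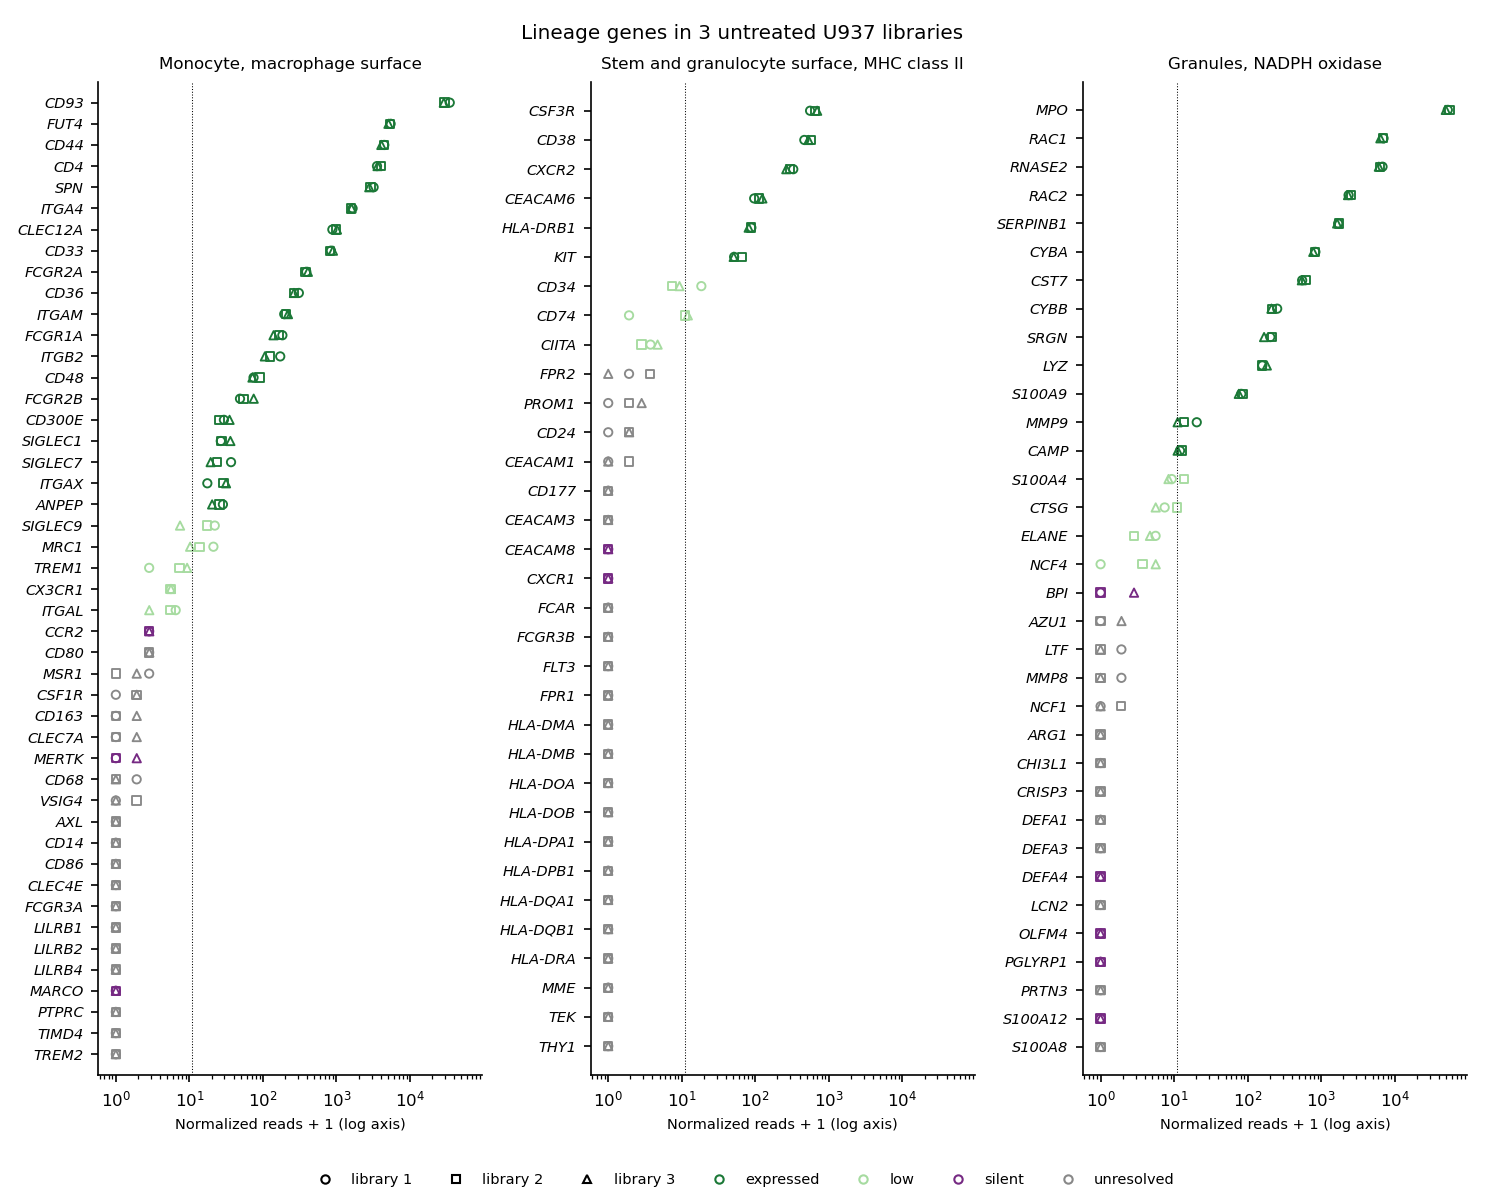
Normalized reads + 1 on a log axis for genes of the lineage lists, grouped as monocyte and macrophage surface genes, stem cell, granulocyte and MHC class II genes, and granule and NADPH oxidase genes, with a marker shape for each of the 3 libraries, color for the call, and a dotted line at the threshold of 10 normalized reads. CD93 and MPO stand at the top, with 28842 to 34698 and 49477 to 55620 normalized reads, and the lower part of each panel holds gray unresolved and purple silent genes at or near 0.

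Stem and progenitor surface genes had 2 expressed, 1 low, 1 silent and 4 unresolved of 8, and granulocyte surface genes 3 expressed, 0 low, 2 silent and 9 unresolved of 14. CD38, an ectoenzyme of committed progenitors, had 463, 567 and 528 normalized reads, and the stem cell factor receptor KIT had 50.5, 65.5 and 49.9. CD34 was low, with 17.5, 6.37 and 8.31, where only library 1 exceeded 10. FLT3, PROM1, THY1 and TEK were unresolved. On the granulocyte side the G-CSF receptor CSF3R had 555, 641 and 693, the interleukin 8 receptor CXCR2 327, 296 and 263 and the adhesion molecule CEACAM6 95.6, 112 and 124, while CXCR1 and CEACAM8 (CD66b) were silent with 0 reads in every library over 2435 and 854 countable bases. Retained-intron transcripts held 77.8% of the CSF3R reads, and its expressed call was lost with protein-coding transcripts only. In MHC class II, HLA-DRB1 had 87.3, 85.6 and 80.3 normalized reads, which are uncertain because the DRB genes are near-identical, whereas the invariant chain CD74 (0.919, 10.01 and 11.1) and the transactivator CIITA (2.76, 1.82 and 3.69) were low and the other 9 genes, HLA-DRA among them, were unresolved. CD74 was expressed without library 1 and CIITA silent without library 3, so that 2 genes were expressed or 1 silent in these cases.

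Transcription factors of the myeloid lineage were expressed in 27 of 49 cases, with 11 low, 4 silent and 7 unresolved. The C/EBP family allowed the cleanest comparison, since the single transcripts of CEBPA, CEBPB, CEBPE and CEBPD are countable over their whole length of 2601, 1839, 1191 and 1252 bases. CEBPA, the factor of granulocyte and monocyte commitment, had 3369.6, 2966 and 2649.8 normalized reads per kb in libraries 1, 2 and 3. CEBPB, which takes over in monocytes and under inflammatory signals, had 381, 392 and 356. CEBPE, the factor of secondary granule genes, had 232, 223 and 191. The order CEBPA, CEBPB, CEBPE held in each library with no overlap between genes. CEBPD, which is induced in acute inflammation and monocyte maturation, had no read in any library.

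SPI1 itself had 137, 117 and 136 normalized reads, or 63.7 ± 5.36 to 182 ± 15.3 per kb, a range wholly below CEBPA and CEBPB. ETV6, an ETS family repressor, had 3548, 3694 and 3709 and its relative ETV3 1003, 933 and 912. GFI1, the repressor that favors granulocytes over monocytes, had 404, 409 and 415, and IRF8, the factor of monocytes and dendritic cells, had 64.3, 82.8 and 83.1. RUNX1, the core-binding factor of definitive hematopoiesis, had 92.8, 81 and 79.4, 78.6% of it on retained-intron transcripts, while its partner CBFB was low with 7.35, 3.64 and 3.69 and RUNX3 was silent with 1, 2 and 2 reads. MYB, which sustains progenitor proliferation, had 30.3, 57.3 and 40.6. MAF, a factor of macrophages, was silent with 0 reads over 470 countable bases. EGR1, an immediate early gene and monocyte factor, had 324, 134 and 82.2, highest in library 1, whereas EGR2 had no read over 497 countable bases. FOS, another immediate early gene, was likewise highest in library 1, with 37.7, 19.1 and 10.2. RUNX1 and FOS lost the expressed call with protein-coding transcripts only. KLF4, MYC, ID1 and PRDM1 were unresolved.

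**Figure D3:**
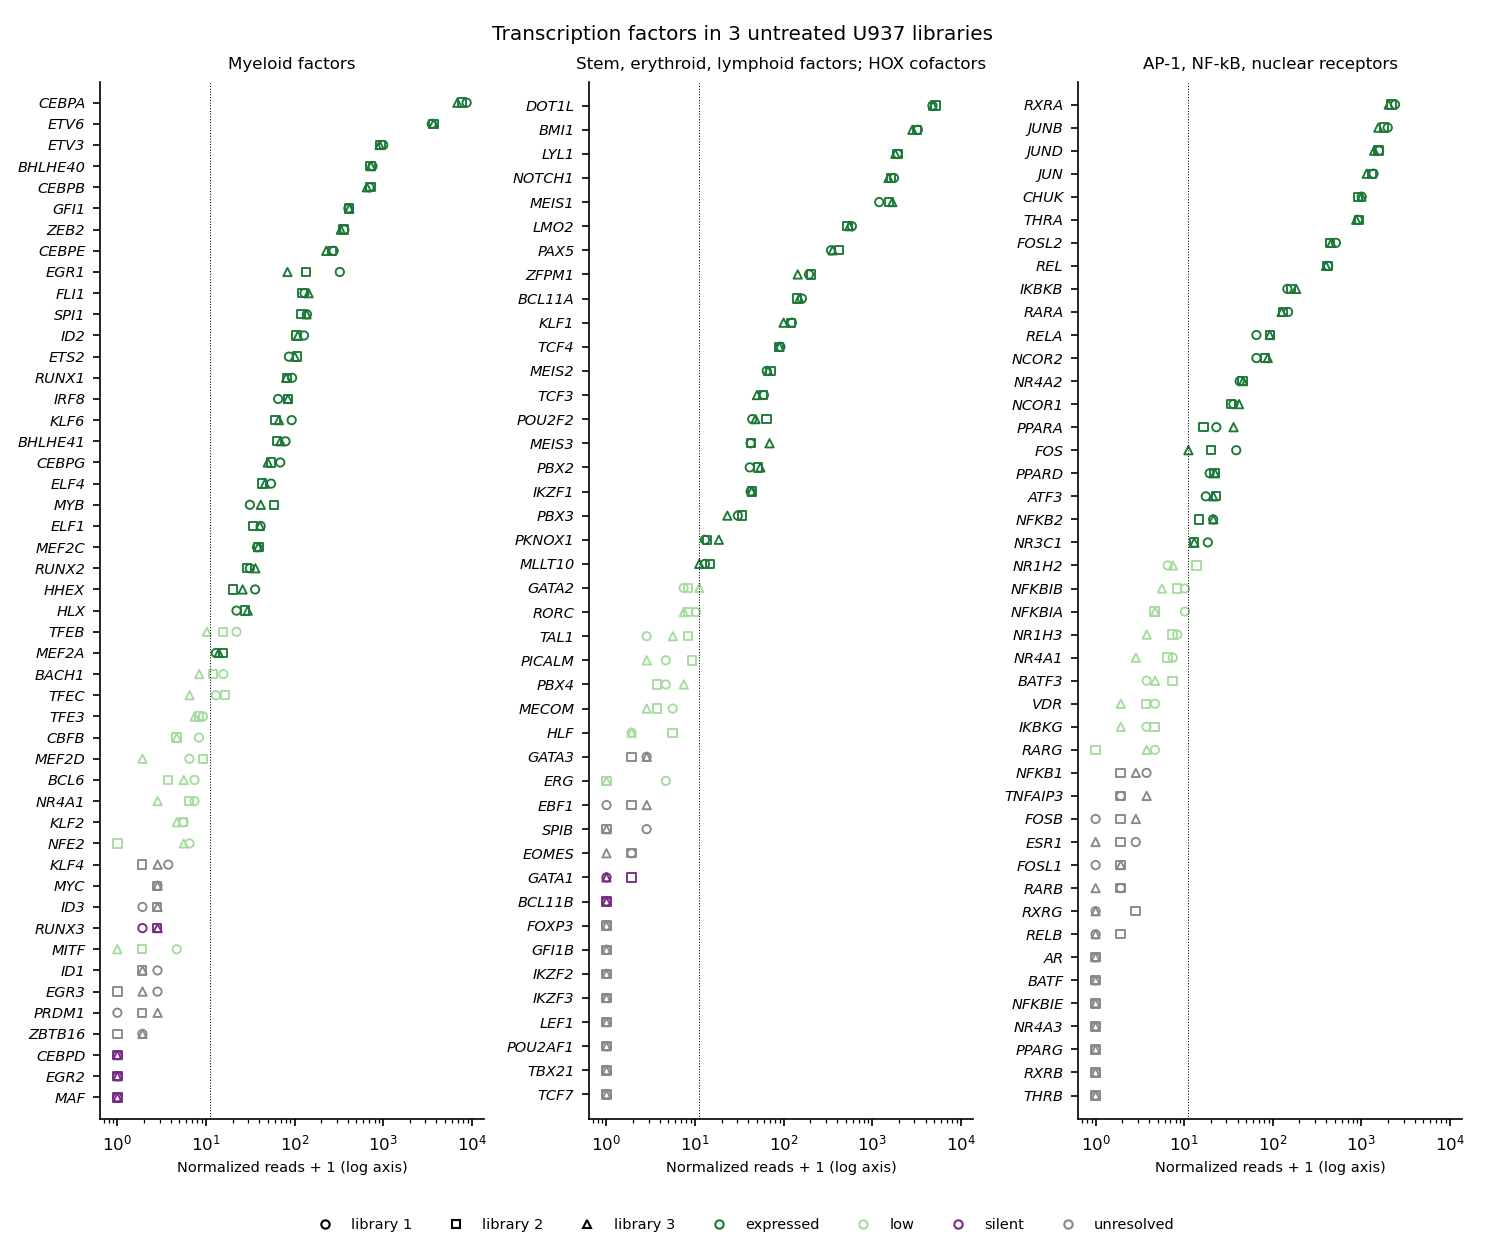
Normalized reads + 1 on a log axis for the transcription factor lists other than HOX, with a marker shape for each of the 3 libraries, color for the call and a dotted line at 10 normalized reads. CEBPA leads the myeloid factors at 6892 to 8764 normalized reads, and EGR1 shows the widest scatter between libraries among the expressed genes with at least 30 normalized reads, from 82.2 to 324.

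Among factors of stem cells and other lineages 11 of 31 were expressed, 6 low, 2 silent and 12 unresolved. LYL1, a helix-loop-helix factor related to TAL1, had 1932, 1932 and 1822 normalized reads. LMO2, which bridges such factors to GATA proteins, had 588, 525 and 549. Of their partners, GATA1 was silent with 0, 1 and 0 reads over 341 countable bases, and GATA2 (6.43, 7.28 and 10.2) and TAL1 (1.84, 7.28 and 4.62) were low. PAX5, the B cell commitment factor, had 342, 421 and 356 normalized reads, and BCL11A, a factor of B cells and fetal globin repression, 159.9, 141 and 149. The erythroid factor KLF1 had 123, 119 and 98.8 over a fully countable transcript, equal to 70.5 ± 8.10 per kb. NOTCH1 had 1758, 1624 and 1525, of which 0.0561% lay on transcripts placed in the annotation used here, so that no level per kb can be given and the call was lost when protein-coding transcripts alone were used. The T cell factor BCL11B was silent with 0 reads over 213 countable bases, and GATA3, EBF1, TCF7, LEF1, TBX21 and FOXP3 were unresolved.

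HOX genes were divided by cluster. In the HOXA cluster 7 of 11 genes were expressed, 3 low and none silent, whereas in the HOXD cluster none of 9 was expressed, 7 were silent and 2 unresolved. HOXB had 1 expressed and 6 silent of 10 genes and HOXC 3 expressed and 1 silent of 9. The HOXC counts rest on few reads, since 5 genes were expressed with a minimum of 5 normalized reads, and HOXC11 (2.76, 2.73 and 3.69, low) made a second silent gene when library 3 was left out. HOXA7 had 708, 788 and 706 normalized reads and HOXA5 388, 343 and 323. HOXA9 and HOXA10 are the posterior genes best known in leukemia. HOXA9 had 122, 121 and 137 and HOXA10 116, 137 and 116. HOXA6 had 185, 146 and 142. Per kb, HOXA7 (304 ± 19.6 to 427 ± 27.5) lay above HOXA5 (204 ± 19.2 to 244 ± 23) without overlap, and HOXA6 (123 ± 18.4 to 205 ± 30.8) overlapped with HOXA5. HOXA9 and HOXA10 had a value per kb of exon only, 41.8 ± 2.87 and 33.2 ± 3.33, which is a lower bound. HOXA13 had 1918, 2094 and 2088, 99.6% of them on a transcript not placed in the annotation used here, and its level cannot be set beside the others. The expressed call of HOXA13 was lost with protein-coding transcripts only. The anterior gene HOXA2 was low, with a mean of 9.49 normalized reads, as was HOXA3 with 12.3.

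HOXB3 was the expressed gene of its cluster, with 14.7, 17.3 and 24, and did not reach a minimum of 30, and HOXB2, HOXB5, HOXB7, HOXB8, HOXB9 and HOXB13 were silent. HOXC4 had 108, 111 and 108, HOXC10 36.8, 42.8 and 48 and HOXC13 16.5, 32.8 and 23.1, and HOXC12 was silent. HOXD1, HOXD4, HOXD8, HOXD9, HOXD10, HOXD11 and HOXD13 had no read in any library, over 1827, 1136, 406, 1871, 801, 857 and 2416 countable bases. The list of cofactors and fusion partners had 9 expressed, 2 low, 1 silent and 0 unresolved of 12. The expressed genes of this list numbered 5 with protein-coding transcripts only, and PBX3 and MLLT10 were among those that lost the call. Among the cofactors that bind DNA with HOX proteins, MEIS1 had 1198, 1548 and 1685, higher in libraries 2 and 3 than in library 1, and PBX3 29.4, 32.8 and 22.2. The fusion partners PICALM (3.68, 8.19 and 1.85, low) and MLLT10 (11.9, 13.7 and 10.2) had few reads, and reads across their junction could not be seen in counts per transcript. DOT1L, the H3K79 methyltransferase that MLLT10 binds, had 4781, 5187 and 4845, and the polycomb gene BMI1, which neighbors MLLT10 on chromosome 10 and is known to be raised in such leukemias, had 3275, 3205 and 2838.

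**Figure D4:**
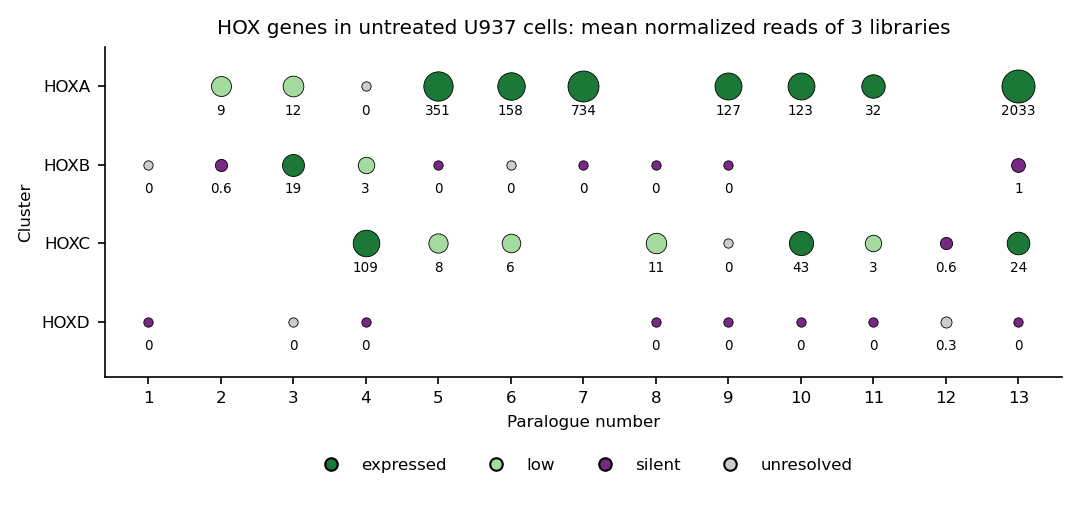
HOX genes of the 4 clusters (rows) by paralogue number (columns), with the mean normalized reads of the 3 libraries printed under each circle, circle area growing with the logarithm of that mean, and color for the call. The HOXA row is expressed from HOXA5 to HOXA13 with a mean of 734 normalized reads for HOXA7, while 7 of 9 HOXD genes are silent at 0 and the other 2 are unresolved.

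AP-1 and NF-κB factors, which respond to growth and inflammatory signals, were expressed in 11 of 22 cases with none silent, and in 7 with protein-coding transcripts only. JUNB had 1982, 1805 and 1553 normalized reads, JUN 1372, 1324 and 1147 and JUND 1585, 1561 and 1393. Per kb JUN, at 393 ± 36.4, lay below JUNB at 973 ± 118 and below JUND at 784 ± 54.4 to 1059 ± 73.5, and JUNB and JUND overlapped. The NF-κB subunit REL had 420.0, 413 and 398 and RELA 64.3, 91.9 and 91.4. The kinase CHUK (IKKα) had 1008, 921 and 1002, and the inhibitor NFKBIA was low with 9.19, 3.64 and 3.69. NFKB1, RELB and TNFAIP3 were unresolved.

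Receptors and enzymes through which the study's drugs act were read next. Of the nuclear receptors and their corepressors 9 of 22 were expressed and none silent. The expressed share was 40.9%, against 42.6% of all coding symbols. RARA, the receptor for ATRA in myeloid cells, had 148, 129 and 125 normalized reads, and its dimer partner RXRA 2397, 2190.2 and 2037. A transcript annotated without a defined coding sequence held 99.5% of the RXRA reads, and with protein-coding transcripts alone RXRA was no longer called expressed. RARG was low, with 3.68, 0 and 2.77, and RARB, RXRB and RXRG were unresolved. The vitamin D receptor VDR was low, with 3.68, 2.73 and 0.924, PPARG was unresolved, and the thyroid hormone receptor THRA had 915, 938 and 874. Genes of retinoid handling had 4 expressed, 1 low, 0 silent and 8 unresolved of 13. Among them, DHRS3, which reduces retinal to retinol, had 409.9, 398 and 418, RDH11 264, 290.4 and 239, RDH10 235, 251 and 235 and ALDH1A1, which makes retinoic acid, 37.7, 52.8 and 36. The binding proteins CRABP1 and CRABP2 and the degrading enzyme CYP26A1 were unresolved.

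Of the genes of DNA methylation and decitabine handling 7 of 16 were expressed, 3 low and 6 unresolved, near the expressed share of all coding symbols (42.6%). The maintenance enzyme DNMT1 had 370.4, 466 and 430.4 normalized reads, 97.9% of them on retained-intron transcripts, and the de novo enzyme DNMT3A 1059.7, 1079.6 and 1002. The TET dioxygenases, which oxidize methylcytosine, had 2727, 2492 and 2519 for TET3 and 334, 337 and 328 for TET1, while TET2 was low with 4.60, 8.19 and 8.31. DCK, the kinase that activates decitabine, was low with 4.60, 2.73 and 5.54, and CDA, the deaminase that inactivates it, was unresolved. SAMHD1, which hydrolyzes the drug's triphosphate, had 164, 207 and 196, the nucleoside transporter SLC28A3 121, 147 and 136 and the transporter SLC29A1 44.1, 38.2 and 44.3, 87% of the latter on retained-intron transcripts. DNMT1 and SLC29A1 lost the expressed call with protein-coding transcripts only. Reads for DCK are limited by its countable sequence, which did not meet the requirement for a level per kb, and its low call is no measure of DCK mRNA.

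Cytokine receptors were expressed in 20 of 35 cases, with 3 silent and 11 unresolved. With a minimum of 30 normalized reads 12 were expressed, and with countable bases on any transcript 10 were silent. The type I interferon receptor had 1989, 1738 and 1707 normalized reads for IFNAR1 and 498, 446 and 491 for IFNAR2. IL6R had 1395, 1084 and 1109, and its signaling chain IL6ST was unresolved. CSF2RB, the chain shared by the GM-CSF, interleukin 3 and interleukin 5 receptors, had 223, 216 and 177, whereas the ligand-binding chains CSF2RA and IL3RA, which lie in the pseudoautosomal region, were unresolved. Of 17 coding pseudoautosomal symbols 16 had no read, so nothing can be said of the GM-CSF receptor's α chain in a medium for which the labels name GM-CSF and the study's methods do not. The interleukin 7 receptor IL7R had 371, 270.4 and 268, highest in library 1. IFNGR2 was expressed with 10.1, 18.2 and 20.3, close to the threshold. The interleukin 1 receptor IL1R1 and the oncostatin M receptor OSMR were silent with 0 reads, OSMR over 3769 countable bases.

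Downstream of these receptors, 19 of 27 JAK-STAT and IRF genes were expressed and none silent. JAK1 had 4119, 4073 and 3864 normalized reads, JAK2 986, 981 and 1022, JAK3 814, 893 and 816 and TYK2 285, 329 and 319, 89.8% of the TYK2 reads on retained-intron transcripts. Per kb JAK1 (677 ± 22.9 to 1511 ± 51.1) lay above JAK2 (132 ± 2.98 to 144 ± 3.23) over the whole range, and above JAK3 (123 ± 6.58 to 394 ± 21), while JAK2 and JAK3 overlapped. STAT5B, the mediator of GM-CSF signals with STAT5A, had 2392, 2582 and 2536. STAT5A had 25.7, 29.1 and 32.3. STAT3 had 1298, 1381 and 1292 and STAT6 452, 403 and 426. IRF7 and STAT4 were unresolved. The feedback inhibitor CISH had 221, 186 and 159.8, 99.8% of them on retained-intron transcripts, and SOCS3 122, 125 and 119, and SOCS1 was low with 6.43, 0 and 3.69 over a fully countable transcript. IRF2, IRF5, IRF1, IRF3 and IRF9 were expressed with means of 364, 96.6, 74.9, 66.6 and 52.9 normalized reads, and IRF4 was low with 4.60, 6.37 and 10.2. TYK2, STAT5A, CISH, IRF3 and IRF9 lost the expressed call with protein-coding transcripts only.

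**Figure D5:**
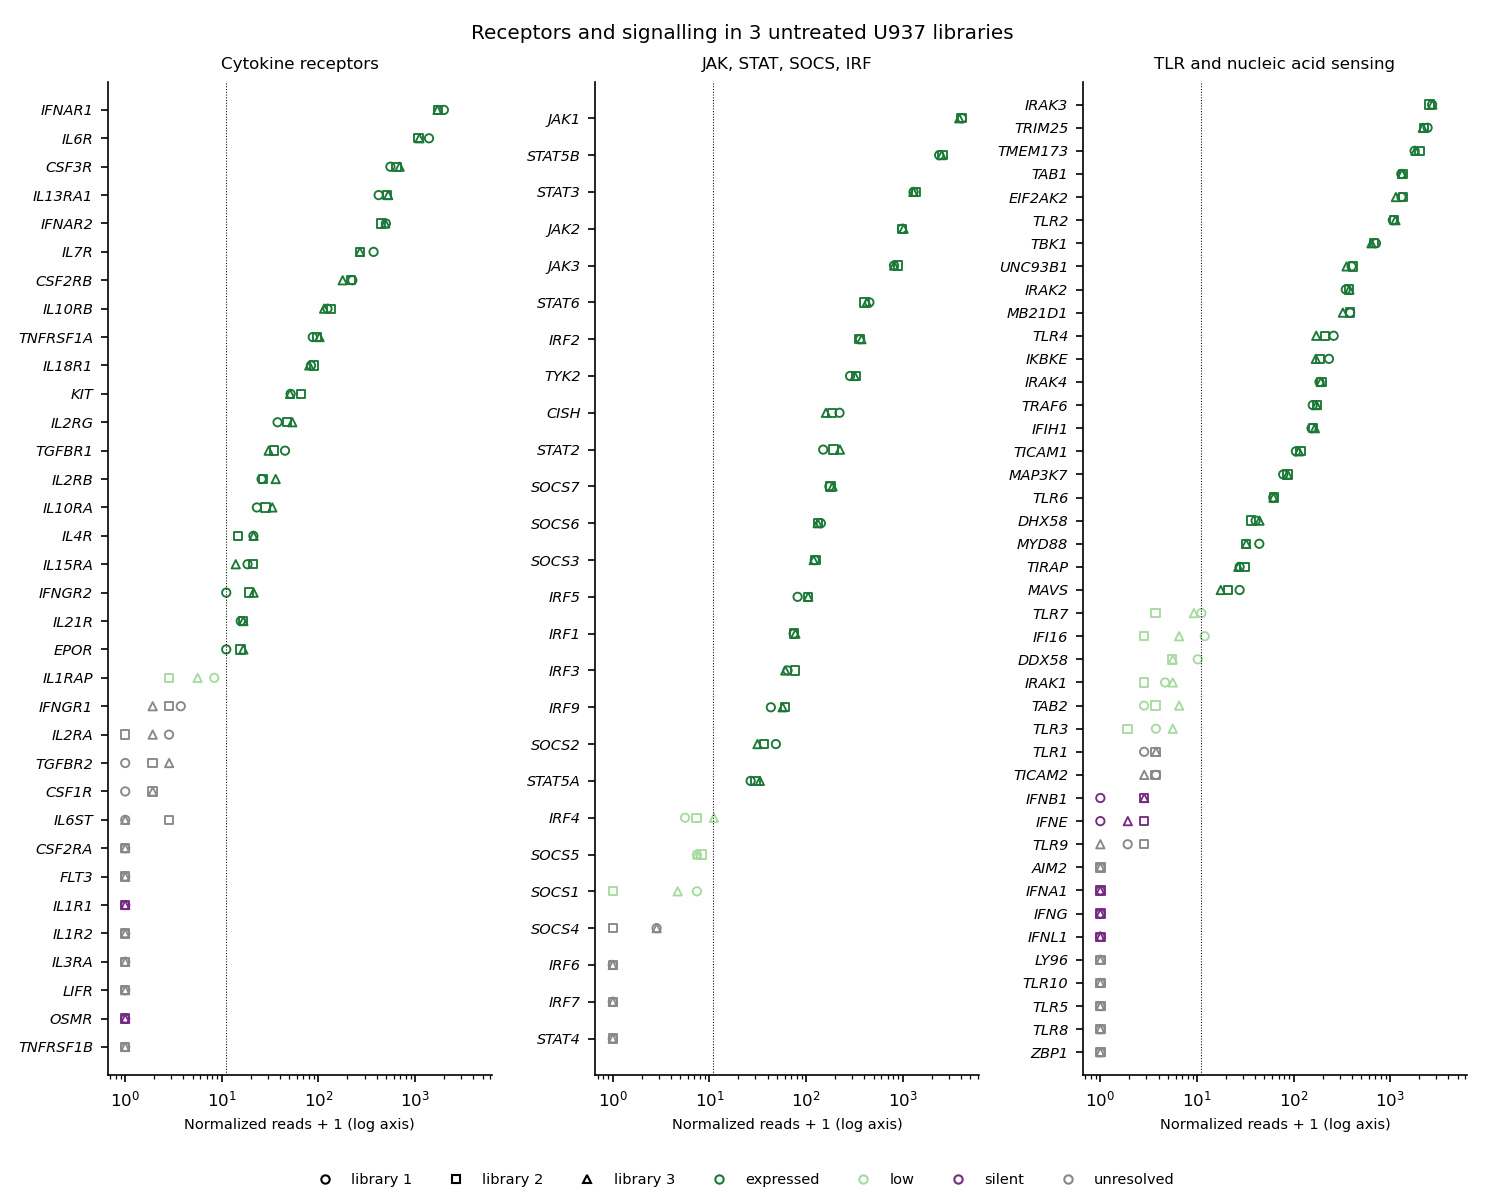
Normalized reads + 1 on a log axis for cytokine receptors, for JAK, STAT, SOCS and IRF genes, and for Toll-like receptor and nucleic acid sensing genes, with a marker shape for each of the 3 libraries, color for the call and a dotted line at 10 normalized reads. JAK1 leads its panel at 3864 to 4119 normalized reads, and the interferon genes IFNB1, IFNE, IFNA1, IFNG and IFNL1 form the purple silent group in the right panel.

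Toll-like receptor signaling genes had 13 expressed, 4 low, 0 silent and 7 unresolved of 24, and the receptors called expressed, TLR2, TLR4 and TLR6, sense bacterial products. TLR2 had 1065, 1102 and 1134 normalized reads, TLR4 259, 211 and 171 and TLR6 60.7, 61.9 and 61. The adaptor MYD88 had 43.2, 30.9 and 31.4, and TICAM1, the adaptor of the TRIF branch, 105, 117 and 113. IRAK3, a negative regulator known from monocytes and macrophages, had 2717, 2562 and 2734. Of the other kinases of this family IRAK2 had 346, 371 and 378 and IRAK4 185, 194 and 190.2, and IRAK1 was low with 3.68, 1.82 and 4.62. Per kb IRAK3 (276 ± 9.74 to 347 ± 12.3) lay above IRAK2 (106 ± 4.81, whole transcript countable). Endosomal receptors had few reads or no resolved value, since TLR7 (10.1, 2.73 and 8.31) and TLR3 (2.76, 0.910 and 4.62) were low and TLR8 and TLR9 were unresolved. LY96 (MD-2), the partner that TLR4 needs to bind endotoxin, was unresolved. TLR6, MYD88 and IRAK4 lost the expressed call with protein-coding transcripts only.

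Several sensors of cytosolic nucleic acids were expressed while the 5 interferon genes of the list were silent, in a list with 9 expressed, 2 low, 5 silent and 2 unresolved of 18. STING (TMEM173) had 1791, 2019.9 and 1828 normalized reads, 96.4% of them on retained-intron transcripts, and cGAS (MB21D1) had 384, 384 and 323. MDA5 (IFIH1) had 153, 157 and 165, its adaptor MAVS 26.7, 20.03 and 16.6 and the kinase TBK1 712, 677 and 640.0. PKR (EIF2AK2) had 1309, 1367 and 1146 and TRIM25, the ubiquitin ligase of the RIG-I pathway, 2441, 2227 and 2177. TMEM173 and IFIH1 lost the expressed call with protein-coding transcripts only. RIG-I itself (DDX58) was low, with 9.19, 4.55 and 4.62, as was IFI16 with 11, 1.82 and 5.54. IFNB1 had 0, 2 and 2 reads in libraries 1, 2 and 3, IFNE 0, 2 and 1, and IFNA1, IFNG and IFNL1 none, over 839, 1475, 430, 1211 and 775 countable bases.

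In ITAM and SRC family signaling 16 of 31 genes were expressed, and 9 with protein-coding transcripts only. The phosphatase PTPN11 (SHP2) had 8298, 8093 and 8069 normalized reads and the ubiquitin ligase CBL 4737, 4972 and 4906. LYN, the SRC family kinase with the most reads, had 1677, 1719.5 and 1519, whereas BLK was silent with 0 reads over 201 countable bases. PLCG2 had 1201, 1232 and 1187 and the Tec kinase BTK 162, 172 and 154, 93% of the latter on retained-intron transcripts, and the call of BTK was lost with protein-coding transcripts only. SYK and the ITAM adaptors TYROBP and FCER1G, which myeloid cells use with their Fc and activating receptors, were unresolved, as were FGR and LCK.

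RAS and PI3K genes were broadly expressed, with 19 of 29 and 17 of 25 genes and none silent in either list. NRAS had 4926, 4795 and 4818 normalized reads and the kinase BRAF 1370.3, 1288 and 1310.5. Per kb NRAS lay at 1120.3 ± 16.2 to 1131 ± 16.3. MAP2K1 was low with 8.27, 8.19 and 2.77 and GRB2 with 6.43, 6.37 and 3.69, and HRAS and MAPK3 were unresolved. Feedback regulators of the pathway were expressed as well, SPRED2 with 979.7, 1000.4 and 942, the phosphatase DUSP4 with 438, 447 and 424 and SPRY2 with 270.2, 212 and 195. In the PI3K pathway MTOR had 3683, 3519 and 3435, the regulatory subunit PIK3R1 1838, 1530.2 and 1506, and the catalytic subunit PIK3CA 666, 681 and 709. AKT2 had 224, 220.3 and 246 and AKT1 165, 143 and 151. PIK3CD, the catalytic subunit of leukocytes, was low with 9.19, 11.8 and 11.1, and PIK3CG had 44.1, 53.7 and 48.9.

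Chemoattractant receptors were expressed in 11 of 27 cases (40.7%, against 42.6% of all coding symbols), and in 7 with a minimum of 30 normalized reads. S1PR4, a sphingosine 1-phosphate receptor of blood cells, had 1709, 1438 and 1362 normalized reads, and the leukotriene B4 receptor LTB4R 1266, 1286 and 1310.5. The chemokine receptor CCR1 had 699, 554 and 491. The complement receptor C3AR1 had 319.8, 254 and 244 and C5AR1 46, 50.1 and 47.1. CXCR4, the marrow homing receptor, had 34.9, 30.04 and 29.6. CCR2, CCR7 and CXCR1 were silent, CCR7 with 1, 1 and 0 reads over 561 countable bases, and FPR1 was unresolved.

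Of the cell cycle inhibitor and apoptosis genes 11 of 16 were expressed. The inhibitor CDKN1A (p21) was low with 4.60, 3.64 and 0.924 normalized reads. RB1 had 1647, 1512 and 1471, CDKN1B (p27) 1346, 1367 and 1315 and the CDKN2A locus 113, 127 and 127. MDM2 varied by 27.2% between libraries, with 25.7, 38.2 and 45.3.

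Markers of other cell types were used to check the identity of the cells, and 9 of the 93 were expressed, 12 low, 11 silent and 61 unresolved. Of all coding symbols 42.6% were expressed, 11.5% silent and 32.9% unresolved. The silent share of the markers, 11.8%, was close to that of all symbols, and most markers were unresolved. The expressed markers were PAX5 and CD79A of B cells, NCAM1 of NK cells, KLF1 and EPOR of erythroid cells, ITGA2B of megakaryocytes, COL1A1 and PDGFRB of fibroblasts and PECAM1, which myeloid cells also carry, of endothelium. PAX5, given above, and CD79A, the B cell receptor's signaling chain, with 141, 124 and 129 normalized reads, were the B cell genes among them, while CD22 (5.51, 1.82 and 6.46) was low and MS4A1, CD79B, CR2, FCRL1 and TNFRSF17 unresolved. PECAM1 had 129.6, 134 and 151, ITGA2B 15.6, 30.04 and 35.1 and NCAM1 24.8, 20.9 and 28.6. COL1A1 had 21.1, 14.6 and 21.2, PDGFRB 11, 10.9 and 25.9 and EPOR 10.1, 14.6 and 15.7, near the threshold, and EPOR was no longer called expressed with protein-coding transcripts only. Silent markers were CD8B of T cells, BLK of B cells, SLC4A1 of erythroid cells, GP9, GP1BA and PF4 of megakaryocytes and platelets, CLC of eosinophils and basophils, CD1A of dendritic cells, EPCAM of epithelium, LUM of fibroblasts and KDR of endothelium. No T cell, mast cell, dendritic or epithelial marker was expressed, but 8 of 10, 5 of 10, 6 of 8 and 6 of 8 genes of these lists were unresolved, among them the CD3 chains. Without library 1 SIGLEC8 (8.27, 14.6 and 15.7) of the mast cell, basophil and eosinophil list and VWF (4.60, 10.9 and 11.1) of endothelium were called expressed. With a minimum of 5 normalized reads, 3 genes of the mast cell, basophil and eosinophil list were expressed. With a minimum of 30 NCAM1, ITGA2B, COL1A1, PDGFRB and EPOR were no longer expressed.

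The reference genes show what counting per transcript does to a level. ACTB, among the most abundant mRNAs of any cell, had 88.2, 71 and 59.1 normalized reads, 90.3% of them on retained-intron transcripts. GAPDH had 174, 127 and 98.8 and EEF1A1 204, 164 and 141, fewer than PGK1 with 3434, 3503 and 3349.6 and HPRT1 with 572, 545 and 453. Reads of a gene with many overlapping transcripts appeared to be lost, so a low value for such a gene is no sign of low expression. The reads followed the countable sequence. At least 10 reads over the 3 libraries were found for 1.98% of 80799 transcripts with 0 countable bases, 8.01% of 15912 with 1 to 100 bases and 28.3% of 78020 with more than 100. Of 93 genes of basic cell functions, such as proteasome, chaperonin and RNA polymerase II subunits, 79 were expressed, 9 low, 5 unresolved and 0 silent. By sequence, 79 of the 93 had 200 countable bases on other transcripts only, and 1 of them had at most 3 reads in every library. All 4 with under 200 countable bases had at most 3 reads. Unresolved genes with less expression than these were not checked. Only 10 of these 93 met the base requirement for a silent call, so the check of that call is a small one. One of the 10, the RNA polymerase II subunit POLR2F, had 6, 7 and 9 reads, all on a transcript without a defined coding sequence, and none on its protein-coding transcripts although 1511 bases of the main one were countable. POLR2F was called low, so no silent call failed in this check. A gene in use can nevertheless lack reads on a main transcript with countable bases, and a silent call may miss such a gene. Among the silent genes BLK, BCL11B and MERTK lay just inside that requirement, with 201, 213 and 214 countable bases. More than 90% of the reads of HOXA13, NOTCH1, TLR6, IFIH1, MALT1, BCL10, PBX2 and S1PR2 lay on transcripts not placed in the annotation. The strand setting of the counting is not known, and protein-coding transcripts lying wholly under exons of the other strand had at least 10 reads in 51.8% of 83 cases, against 47.9% of 9742 that were clear of them. Among expressed coding symbols the leading transcript held a median of 92.5% of the reads, and 1680 (20.0%) had most of their reads on retained-intron transcripts. Outside mitochondrial transcripts, 86.9% of reads lay on protein-coding and 4.61% on retained-intron transcripts.

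The coefficient of variation beyond counting error, estimated by edgeR over 8546 coding symbols with the 3 libraries as a single group, was 6.33%, and fell to 3.86% when library 1 was left out. The median coefficient of variation was 17.7% for symbols with 10 to 30 normalized reads, where counting error alone gives 21.5%, and 4.76% above 1000, where it gives 2.19%. A median of coefficients from 3 values runs below the true coefficient, so 17.7% does not mean a spread below counting error. Library 1 lay somewhat apart, since the chi-square per degree of freedom over 8991 symbols was 3.30 between libraries 1 and 2 and 3.49 between 1 and 3, but 1.60 between 2 and 3. Among 228 expressed genes of the lists with at least 30 normalized reads, the median coefficient of variation was 7.55% and 14 exceeded 20%, led by EGR1 (70.7%), MYB (31.9%), MEIS3 (30.5%) and GAPDH (28.5%). A lower level of RNA per cell and fewer expressing cells cannot be told apart in these bulk samples.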

How the data were processed

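RNA from U937 cells was depleted of ribosomal RNA and sequenced as stranded paired-end libraries. Per the submitters' processing notes, reads were aligned to hg38 with STAR, counted with HTSeq and normalized with DESeq2, in versions not given in the sources used here. The deposited signal values are the authors' normalized reads for 197782 transcripts, 12 libraries in all. All values of the 3 untreated libraries were whole multiples of the value of 1 read (100% within 0.001 of a read, largest deviation 5.18e-05), with size factors of 1.088, 1.099 and 1.083. Read totals were recovered from these steps, and 3 reads set the limit for a count of 0.

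Transcripts were matched by identifier to GENCODE 44, in which 174768 were placed and 23014 were not, 82.8% of the placed ones in an unchanged version. The authors' annotation release and counting mode are not given in the sources used here. Countable bases lay outside every other transcript of the same strand, in windows of 50 bases found once in hg38 with its alternate sequences. A silent call required 200 such bases on the Ensembl canonical transcript, leaving out stretches of a revised version beyond the unrevised transcripts. Levels per kb were computed where at least 90% of a symbol's reads lay on transcripts with 200 countable bases and 90% on placed transcripts. Values are mean ± SD over 3 libraries. No test was made, since a single group was described. The spread was estimated with edgeR 4.0.16 in R 4.3.3.

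Values were given for genes marked in advance in each list, for the 2 members of each list highest per kb and for the 10 highest symbols overall. Other genes given with values, the genes of basic cell functions and the 4 promoters were chosen after the values were seen. The members and lists were chosen with earlier results of these data known. Promoter sequences are from RefSeq (GRCh38.p14), for the 10616 of 19767 symbols with a single start. Alternatives were other minimums, reads, reads per M reads, levels per kb, protein-coding or leading transcripts only, other base requirements and leaving out each library. The base requirements on any transcript and with revised stretches, and the spread without each library, were chosen after seeing the data. Some genes of the lists are counted in the totals but are not reported here by name.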

Additional observations from a re-analysis of the deposited data

How the results depend on the processing

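The count of expressed coding symbols, 8421, ran from 6015 with protein-coding transcripts only to 9297 with a minimum of 5 normalized reads, and stayed within 1.5 times the reported count under every alternative run. Silent symbols depended on which bases were required. With 200 countable bases on any transcript 6681 symbols were silent in place of 2278, and with revised stretches included 3699, while silent genes of the lists rose from 51 to 209 and 93. These settings were chosen after seeing the data, and fewer requirements admit more symbols by construction. The median level over 91 named genes was 150.5 normalized reads per kb of countable sequence, 109 per kb of merged exon length and 133 with protein-coding transcripts only. With protein-coding transcripts only, 60 genes of the lists lost the expressed call, among them CD33, CSF3R, DNMT1, TMEM173, RXRA, HOXA13, NOTCH1 and ACTB. The spread estimated by edgeR was 3.86% without library 1 and ranged from 3.86% to 8.06% when each library was left out. Leaving out a library moved the expressed count to between 8549 and 8576 and the silent count to between 2314 and 2316. Both calls require every library, so these counts could only rise. Of the counts of expressed or silent genes in single lists, 455 stayed within 1.5 times the reported count under an alternative and 77 did not, 30 of the latter with 200 countable bases on any transcript, 17 with revised stretches included, 8 with a minimum of 30, 7 each with protein-coding transcripts only and with 0 reads in every library, 3 and 2 without libraries 1 and 3, 2 with a minimum of 5 and 1 with the highest transcript only. Of the levels per kb of single genes, 353 moved by less than 1 SD between libraries and 102 by more. Of 91 genes, 76 moved by more per kb of merged exon length and 26 with protein-coding transcripts only. All 91 stayed within 1 SD when each library was left out. That outcome was fixed in advance, since leaving out 1 of 3 values cannot move a mean by 1 SD. No paired analysis was possible because a single group was described without a test and its columns carry no replicate numbers.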

Other observations

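Outside the gene lists, and chosen after the values were seen, the T cell receptor gamma locus had reads in all 3 untreated libraries although the CD3 chains were unresolved. The constant gene TRGC1 had 1047, 890.3 and 811 normalized reads in libraries 1, 2 and 3, and TRGC2 had 188, 193 and 153. Among the variable genes TRGV5 had 316, 301 and 273 and TRGV9 292, 224 and 213, while TRGV1 had no read over 396 countable bases. The counts per gene do not show whether the locus is rearranged.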
